A study of Rattus norvegicus with 14 samples.

Results

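The genes described here are those of fatty acid oxidation and of the nuclear receptor PPARA. They are a list of 32 gene symbols for mitochondrial and peroxisomal beta-oxidation and for genes known to respond to PPARA, and the rule that takes their probe sets uses no measured value. The arrays measured 31 of these 32 genes with 1 probe set each, out of 16134 genes with a symbol, and Hadha was not analysed here. Lateral prostates from 14 male Noble rats, 1 array per rat, were profiled to ask how gene expression responds to bisphenol A (BPA), a weakly estrogenic building block of plastics. All rats were 48 weeks old per the labels, and treated rats carried implanted capsules for 32 weeks. In the T+high BPA group (n = 3) the capsules held 30 mg testosterone and 320 mg BPA. The T+low BPA group (n = 3) received 30 mg testosterone and 15 mg BPA, and the T+E2 group (n = 4) received 30 mg testosterone and 15 mg estradiol. Control rats (n = 4) carried empty capsules under the skin. Rats on testosterone by itself were not analysed here, so each difference from Control combines the effects of the hormone and of the second compound. The Noble rat is a strain whose prostate develops proliferative lesions under combined androgen and estrogen. The replicates are separate rats per the labels, so the tests rest on rat-to-rat spread within these groups.

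Fatty acids enter a cell through transporters such as CD36, are activated to acyl-CoA by synthetases, and pass into mitochondria through the carnitine shuttle. In the mitochondrial matrix each round of beta-oxidation runs through a dehydrogenase, a hydratase, a second dehydrogenase and a thiolase, while peroxisomes shorten very long and branched chains with their own enzymes. PPARA is a receptor for fatty acids that binds DNA with a retinoid X receptor partner and raises transcription of many of these enzymes, a role best known in liver, heart and muscle. The prostate epithelium is known for secreting citrate, and fatty acid oxidation is one of the fuel pathways studied in prostate tumours.

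The deposited values are log2 signals normalized between arrays by the authors, so a difference of 1 is a doubling, and levels of different genes cannot be compared with each other. The prostate secretory genes Pbsn and Msmb were high in every group, at 12.87 ± 0.16 and 13.10 ± 0.14 in T+high BPA and 12.53 ± 0.28 and 12.86 ± 0.25 in Control. Prostate markers were not level across groups. Of 5 measured, 1 was higher and 1 lower in T+high BPA than in T+E2 at an adjusted p below 0.05 (limma). Their differences ran from -1.07 to 1.24. Control replicate 4 stood apart, with a mean correlation of 0.961 with the other Control arrays. Averaged over 5 ventral prostate secretory genes, the level was 10.54 to 12.75 in T+high BPA, 7.47 to 7.90 in T+low BPA, 6.92 to 12.64 in T+E2 and 5.99 to 12.54 in Control. T+high BPA replicate 2, T+E2 replicate 2 and Control replicate 4 were the 3 highest of the 14 arrays (12.75, 12.64 and 12.54). Results that rest on these arrays are also given without them. The arrays are of whole tissue, so fewer cells of a type and less RNA per cell cannot be told apart.

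**Figure D1:**
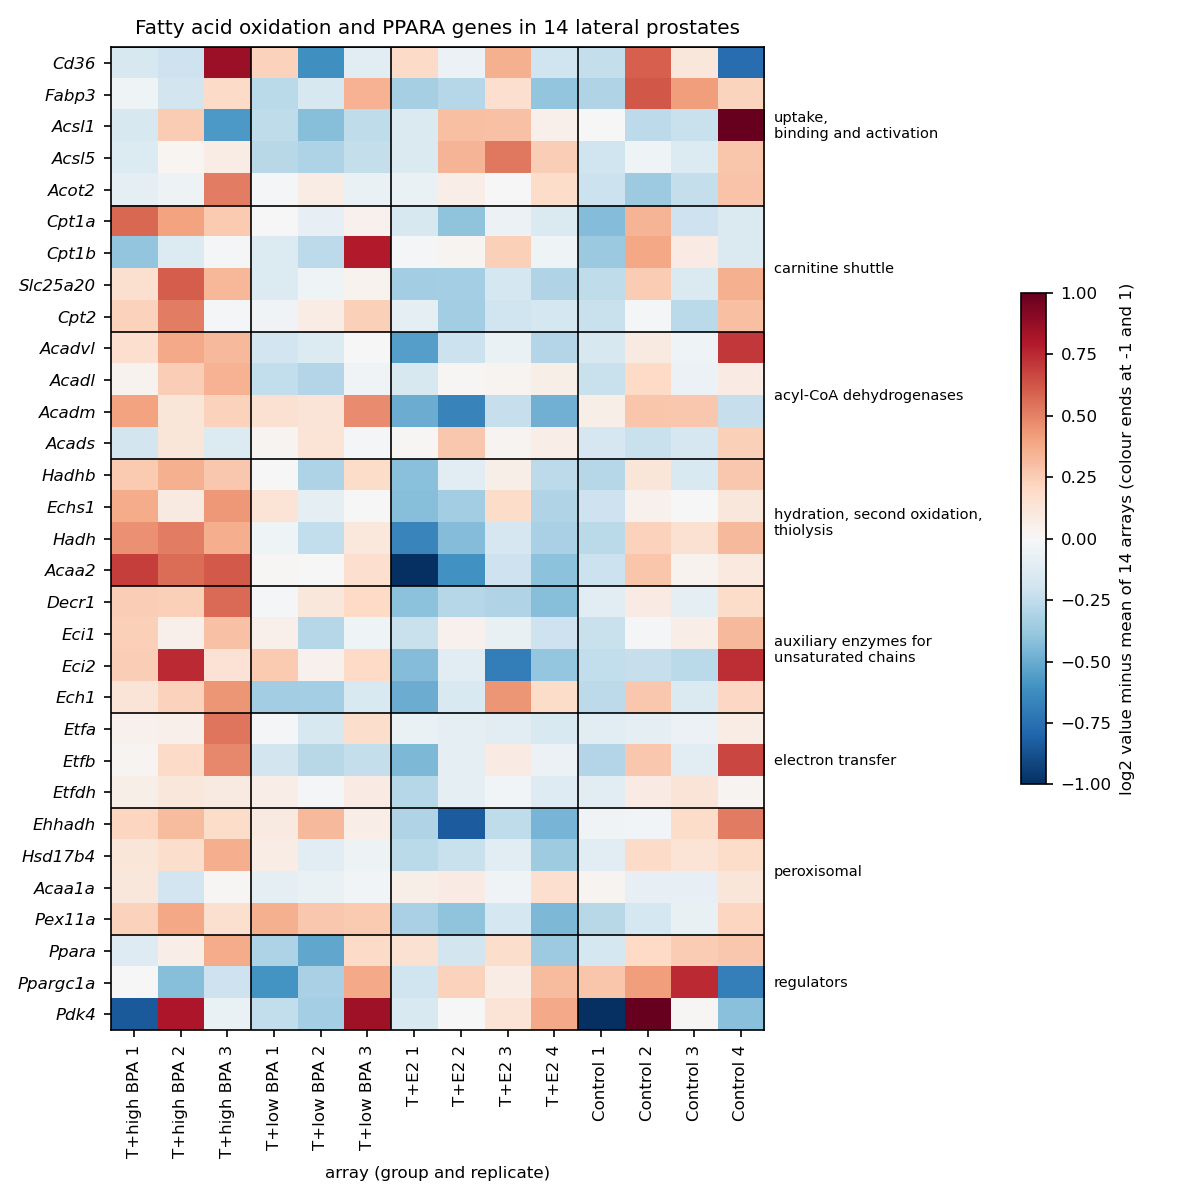
Log2 values of the 31 measured genes (rows, grouped by role) on the 14 arrays (columns, by group and replicate), each minus the gene's mean over the 14 arrays; colours end at -1 and 1. Most genes from the carnitine shuttle to the peroxisomal enzymes are red in T+high BPA and blue in T+E2, while the regulators at the bottom and the uptake genes at the top show no such split.

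Of the 6 comparisons, T+high BPA against T+E2 held the most calls among these genes. It is a comparison of BPA with estradiol on a shared testosterone background at different capsule loads. Of the 31 genes, 11 were higher in T+high BPA and 0 were lower at an adjusted p below 0.05 (limma, adjusted over all genes). Over all 16134 genes, 6.48% were called higher and 3.68% lower in this comparison. The called genes spanned the carnitine shuttle (Cpt1a, Slc25a20), the mitochondrial spiral (Acadm, Echs1, Hadh, Acaa2), the enzymes for unsaturated chains (Decr1, Eci2) and the peroxisome (Ehhadh, Hsd17b4, Pex11a). The median difference over the 31 genes was 0.31 on the log2 scale, against -0.05 over all genes, and 24 of 31 were higher. On 16 of 31 genes every T+high BPA array lay above every T+E2 array, as was so for 12.6% of all genes, and 0 of 31 had the opposite order, as had 14.1% of all genes.

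In the carnitine shuttle, Cpt1a, the liver-type transferase that sets the rate of entry into mitochondria, had log2 values of 8.99, 8.82 and 8.68 in T+high BPA, 8.42, 8.33 and 8.46 in T+low BPA, 8.26, 8.01, 8.36 and 8.27 in T+E2, and 7.99, 8.76, 8.21 and 8.27 in Control. All 3 T+high BPA arrays were above the T+low BPA and T+E2 arrays, and 1 Control array lay among them. The difference between T+high BPA and T+E2 was 0.60 ± 0.15 (SE), a 1.52-fold difference with an adjusted p of 0.0212 in limma. Slc25a20, the carrier that exchanges acylcarnitine across the inner membrane, was at 7.78, 8.23 and 7.95 in T+high BPA, 7.48, 7.57 and 7.65 in T+low BPA, 7.27, 7.28, 7.44 and 7.32 in T+E2, and 7.36, 7.87, 7.48 and 7.98 in Control. Its arrays did not overlap between T+high BPA and T+E2 (difference 0.66 ± 0.14, adjusted p = 0.0116). Cpt2, the inner transferase, averaged 6.94 ± 0.27 in T+high BPA, 6.79 ± 0.14 in T+low BPA, 6.50 ± 0.10 in T+E2 and 6.65 ± 0.26 in Control (SD). Its arrays did not overlap between T+high BPA and T+E2, but the difference of 0.45 ± 0.15 did not pass the threshold (adjusted p = 0.069). Cpt1b, the muscle-type transferase, was at 5.74, 5.99 and 6.12 in T+high BPA, 5.99, 5.87 and 6.92 in T+low BPA, 6.12, 6.15, 6.37 and 6.08 in T+E2, and 5.76, 6.52, 6.22 and 5.98 in Control. Its groups overlapped and its difference was -0.23 ± 0.22 (adjusted p = 0.521). Over the fits that each left out 1 array, the adjusted p of Cpt1a ran to 0.101, and the call was lost without T+E2 replicate 2 (0.0583), T+high BPA replicate 1 (0.101) or T+high BPA replicate 2 (0.0619). That of Slc25a20 was lost without T+high BPA replicate 2 (0.0615).

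Among the acyl-CoA dehydrogenases, which take the first oxidation step for chains of falling length, the medium-chain enzyme Acadm differed. Acadm was at 9.44, 9.16 and 9.27 in T+high BPA, 9.19, 9.17 and 9.51 in T+low BPA, 8.54, 8.37, 8.80 and 8.56 in T+E2, and 9.09, 9.31, 9.31 and 8.80 in Control. Both BPA groups lay above all T+E2 arrays, and T+high BPA exceeded T+E2 by 0.72 ± 0.14 (1.65-fold, adjusted p = 0.00641). The very-long-chain enzyme Acadvl was just outside the threshold (0.57 ± 0.17, adjusted p = 0.0501), with 7.28, 7.49 and 7.43 in T+high BPA, 6.92, 6.97 and 7.11 in T+low BPA, 6.56, 6.90, 7.05 and 6.82 in T+E2, and 6.95, 7.20, 7.07 and 7.82 in Control. Its T+high BPA arrays were all above the T+E2 arrays. The long-chain enzyme Acadl differed by 0.22 ± 0.11 (adjusted p = 0.226), and the short-chain enzyme Acads, at 5.73 to 6.21 on the 14 arrays, by -0.16 ± 0.12 (adjusted p = 0.395).

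The later steps of the mitochondrial spiral held the widest difference. Acaa2, a mitochondrial thiolase, was at 9.77, 9.64 and 9.69 in T+high BPA, 9.10, 9.09 and 9.25 in T+low BPA, 8.07, 8.48, 8.88 and 8.68 in T+E2, and 8.87, 9.36, 9.12 and 9.18 in Control. The T+high BPA arrays were above every other array of the series, and the T+E2 arrays were below both BPA groups. T+high BPA exceeded T+E2 by 1.18 ± 0.16 (95% interval 0.84 to 1.52), which is 2.26-fold with an adjusted p of 0.0005. Hadh, the second dehydrogenase for shorter chains, was at 8.98, 9.04 and 8.89 in T+high BPA, 8.48, 8.28 and 8.64 in T+low BPA, 7.87, 8.09, 8.36 and 8.20 in T+E2, and 8.26, 8.76, 8.68 and 8.86 in Control. Here too the T+high BPA arrays were above all others, by 0.84 ± 0.15 over T+E2 (1.79-fold, adjusted p = 0.003). Echs1, the hydratase for short chains, was at 8.90, 8.63 and 8.97 in T+high BPA, 8.67, 8.45 and 8.54 in T+low BPA, 8.11, 8.19, 8.72 and 8.24 in T+E2, and 8.33, 8.58, 8.53 and 8.65 in Control. T+E2 replicate 3 lay among the T+high BPA arrays, and the difference was 0.52 ± 0.14 (adjusted p = 0.0321). The call of Echs1 was lost without T+E2 replicate 1, 2 or 4 (0.0871, 0.0768 and 0.0741) or T+high BPA replicate 1 or 3 (0.114 and 0.109). Hadhb, the thiolase subunit of the trifunctional protein, lay at 10.04 to 10.13 in T+high BPA, 9.48 to 9.97 in T+low BPA, 9.37 to 9.84 in T+E2 and 9.49 to 10.05 in Control. Its difference of 0.48 ± 0.15 between T+high BPA and T+E2 had no overlap of arrays, but an adjusted p of 0.0594.

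**Figure D2:**
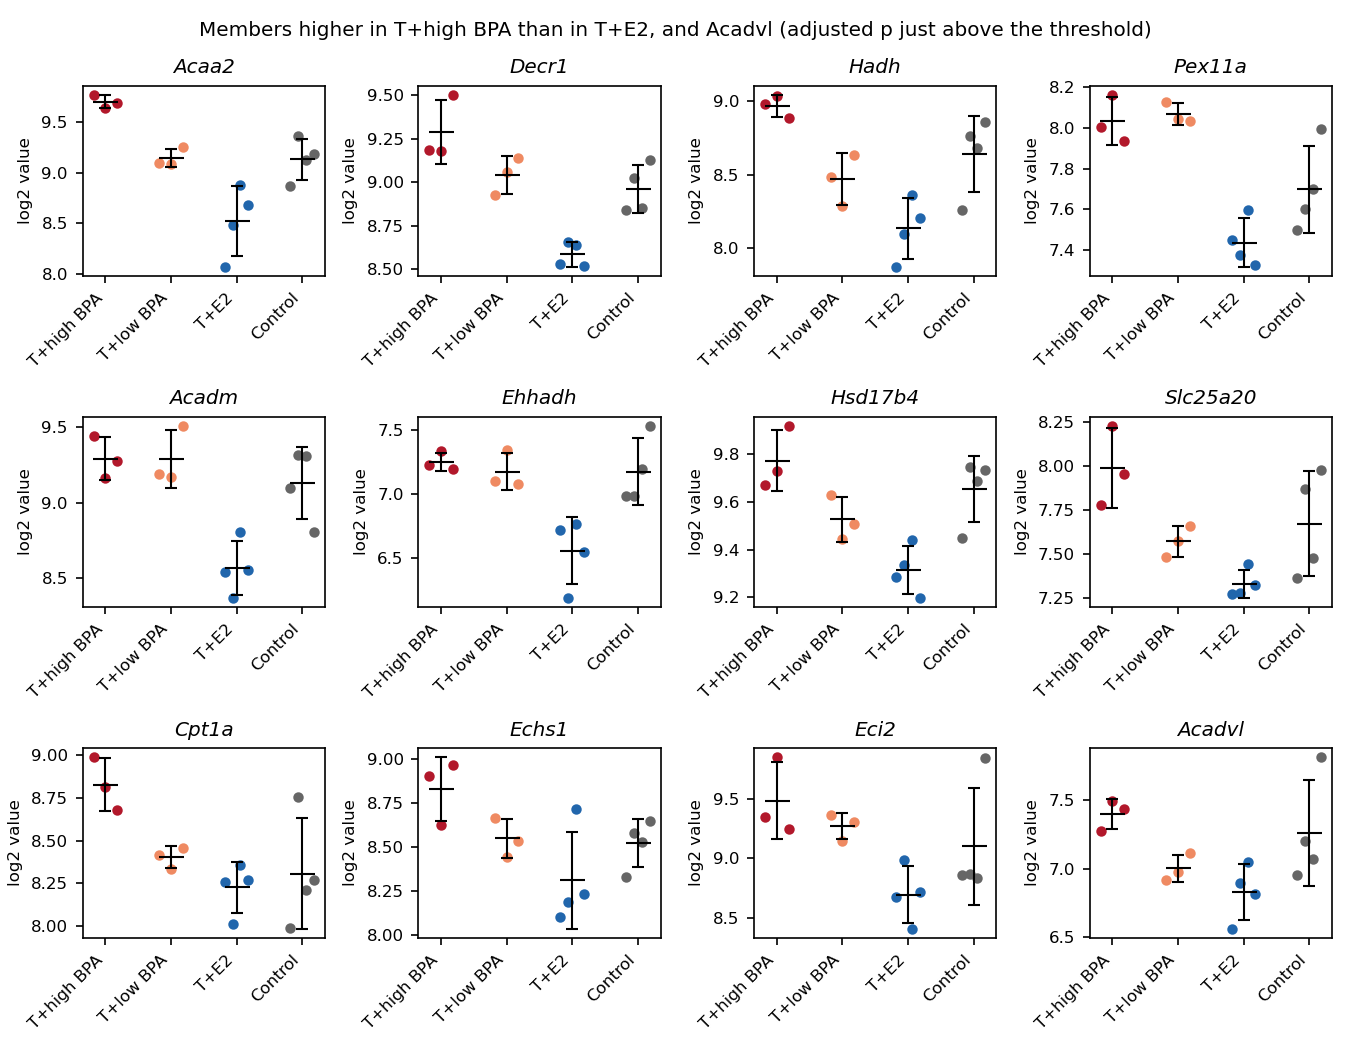
Log2 values (vertical axes) of the 11 genes called higher in T+high BPA than in T+E2, and of Acadvl at an adjusted p of 0.0501; points are arrays, and black marks and bars are mean and SD of T+high BPA (n = 3), T+low BPA (n = 3), T+E2 (n = 4) and Control (n = 4). Acaa2 and Hadh are highest on the T+high BPA arrays, while Acadm, Ehhadh and Pex11a are at similar levels in both BPA groups and lowest in T+E2.

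Double bonds in fatty acids need auxiliary enzymes before the chain can pass through the spiral. Decr1, the mitochondrial dienoyl-CoA reductase, was at 9.19, 9.18 and 9.50 in T+high BPA, 8.92, 9.06 and 9.14 in T+low BPA, 8.53, 8.66, 8.64 and 8.52 in T+E2, and 8.84, 9.03, 8.85 and 9.13 in Control. The groups stood in the order T+high BPA, T+low BPA and T+E2 with no overlap, and T+high BPA exceeded T+E2 by 0.71 ± 0.11 (1.63-fold, adjusted p = 0.0011). Eci2, an enoyl-CoA isomerase, was at 9.35, 9.85 and 9.25 in T+high BPA, 9.36, 9.15 and 9.30 in T+low BPA, 8.67, 8.99, 8.41 and 8.71 in T+E2, and 8.86, 8.87, 8.83 and 9.84 in Control. Arrays of T+high BPA and T+E2 did not overlap (0.79 ± 0.23, adjusted p = 0.0406), but T+high BPA replicate 2 and Control replicate 4, both high in ventral prostate genes, were far above the rest of their groups. After adding the mean of the ventral genes to the model, the difference in Eci2 was 0.46 (adjusted p = 0.071), and without the 3 arrays highest in these genes it was 0.70 (adjusted p = 0.0036). The call of Eci2 was also lost without any 1 of the T+high BPA arrays (0.0543 to 0.171) or T+low BPA arrays (0.0525 to 0.0548), or with any of T+E2 replicates 1, 3 and 4 left out (0.0837, 0.0793 and 0.0763). The isomerases Eci1 and Ech1, which ran from 6.54 to 7.15 and from 8.56 to 9.50 over the 14 arrays, did not pass the threshold, with differences of 0.31 ± 0.13 and 0.27 ± 0.19. Nor did the electron transfer genes Etfa (0.31 ± 0.12), Etfb (0.36 ± 0.19) and Etfdh (0.22 ± 0.09), which carry electrons from the acyl-CoA dehydrogenases to the respiratory chain. Etfa ran from 8.34 to 9.03 over the arrays, highest in T+high BPA replicate 3, and Etfdh from 8.75 to 9.16. T+E2 replicate 1 was the lowest of the 14 arrays in 9 of the 31 genes (Slc25a20, Acadvl, Hadhb, Echs1, Hadh, Acaa2, Ech1, Etfb and Etfdh), and without it 9 genes were called between T+high BPA and T+E2.

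Of the 4 peroxisomal genes, 3 were called. Ehhadh, the bifunctional enzyme of the inducible peroxisomal pathway and a textbook PPARA target in rodent liver, was at 7.23, 7.34 and 7.20 in T+high BPA, 7.11, 7.34 and 7.08 in T+low BPA, 6.72, 6.18, 6.76 and 6.55 in T+E2, and 6.98, 6.99, 7.20 and 7.54 in Control. T+E2 was below each of the other groups without overlap, and the difference of T+high BPA from it was 0.70 ± 0.15 (1.63-fold, adjusted p = 0.0115). Pex11a, which drives peroxisome division, was at 8.01, 8.16 and 7.94 in T+high BPA, 8.13, 8.04 and 8.04 in T+low BPA, 7.45, 7.37, 7.60 and 7.32 in T+E2, and 7.50, 7.60, 7.70 and 7.99 in Control. All arrays of both BPA groups were above the T+E2 arrays, and T+high BPA exceeded T+E2 by 0.60 ± 0.11 (1.52-fold, adjusted p = 0.00556). Hsd17b4, the bifunctional enzyme for branched chains and bile acid precursors, was at 9.67, 9.73 and 9.92 in T+high BPA, 9.63, 9.44 and 9.51 in T+low BPA, 9.28, 9.34, 9.44 and 9.20 in T+E2, and 9.45, 9.75, 9.69 and 9.74 in Control. It was higher in T+high BPA than in T+E2 by 0.46 ± 0.10 (adjusted p = 0.0115) with no overlap, a call lost without T+high BPA replicate 3 (0.0539). Acaa1a, the peroxisomal thiolase, differed by -0.09 ± 0.09 (adjusted p = 0.533), with a 95% interval of -0.29 to 0.11, and stayed within 6.95 to 7.31 on the 14 arrays.

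Of the 11 calls, 6 were kept whichever of the 14 arrays was left out, namely Acadm, Hadh, Acaa2, Decr1, Ehhadh and Pex11a, with a highest adjusted p of 0.048 in limma. The number of calls ran from 8 to 14 over these fits. With the skeletal muscle mean as a covariate 15 of the 31 genes were called, and with the ventral prostate mean 11 were. Without the 3 arrays highest in ventral prostate genes 11 were called, and Cpt1a lost its call (adjusted p = 0.0933).

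The promoters of 6 genes are shown as examples. Pex11a, Acadm, Ehhadh, Hadh and Hsd17b4 were called in T+high BPA against T+E2. Acadvl was just outside and was added after its values were seen. Cpt1a, Slc25a20, Echs1 and Eci2 were also called and have windows that are not shown. Each is the RefSeq window of assembly GRCr8 from 250 bases before to 50 bases after the gene's start, written 5′ to 3′ on the gene's strand, at chr1:143096442-143096741 (minus strand) for Pex11a, chr2:245542815-245543114 (minus) for Acadm, chr11:92746159-92746458 (plus) for Ehhadh, chr2:222504397-222504696 (minus) for Hadh, chr18:45515177-45515476 (plus) for Hsd17b4 and chr10:55236656-55236955 (minus) for Acadvl. Capitals mark matches, on either strand, to AGGTCA, the half-site that nuclear receptors such as PPARA recognise, and to GGGCGG, the GC box.
Pex11a: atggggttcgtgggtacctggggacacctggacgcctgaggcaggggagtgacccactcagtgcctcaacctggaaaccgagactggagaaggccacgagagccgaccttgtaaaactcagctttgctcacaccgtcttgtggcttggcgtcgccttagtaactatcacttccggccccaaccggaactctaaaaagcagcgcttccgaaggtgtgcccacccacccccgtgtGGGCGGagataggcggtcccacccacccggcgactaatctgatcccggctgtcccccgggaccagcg
Acadm: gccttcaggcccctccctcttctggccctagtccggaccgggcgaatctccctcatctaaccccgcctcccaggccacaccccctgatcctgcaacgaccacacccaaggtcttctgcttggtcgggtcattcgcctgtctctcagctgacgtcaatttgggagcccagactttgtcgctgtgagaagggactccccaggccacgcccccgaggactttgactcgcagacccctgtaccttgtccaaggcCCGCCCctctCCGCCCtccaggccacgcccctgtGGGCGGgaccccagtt
Ehhadh: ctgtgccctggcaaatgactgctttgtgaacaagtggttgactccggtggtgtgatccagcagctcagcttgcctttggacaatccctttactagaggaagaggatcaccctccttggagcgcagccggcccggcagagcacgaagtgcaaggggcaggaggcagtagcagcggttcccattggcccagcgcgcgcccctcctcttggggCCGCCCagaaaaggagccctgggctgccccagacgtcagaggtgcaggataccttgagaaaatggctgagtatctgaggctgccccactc
Hadh: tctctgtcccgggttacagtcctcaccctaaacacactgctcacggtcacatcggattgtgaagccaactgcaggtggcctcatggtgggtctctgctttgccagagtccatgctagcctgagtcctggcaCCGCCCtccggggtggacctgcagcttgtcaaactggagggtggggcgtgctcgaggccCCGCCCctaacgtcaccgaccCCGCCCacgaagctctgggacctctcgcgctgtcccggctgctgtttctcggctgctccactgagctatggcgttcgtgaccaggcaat
Hsd17b4: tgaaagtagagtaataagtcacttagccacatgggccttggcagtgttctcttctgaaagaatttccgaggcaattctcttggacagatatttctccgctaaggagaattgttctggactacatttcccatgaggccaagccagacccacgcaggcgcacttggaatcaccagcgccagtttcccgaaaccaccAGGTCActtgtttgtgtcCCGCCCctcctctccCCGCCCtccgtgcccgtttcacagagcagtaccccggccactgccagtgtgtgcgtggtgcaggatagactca
Acadvl: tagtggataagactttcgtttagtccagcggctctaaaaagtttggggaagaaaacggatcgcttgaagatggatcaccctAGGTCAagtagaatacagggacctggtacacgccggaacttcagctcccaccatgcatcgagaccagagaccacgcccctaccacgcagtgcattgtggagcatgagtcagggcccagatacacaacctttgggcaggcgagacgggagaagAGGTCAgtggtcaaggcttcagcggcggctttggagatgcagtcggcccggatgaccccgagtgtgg

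A window was found for 27 of the 32 listed genes, and Cpt1b, Acadl, Acaa2, Decr1 and Ech1 have none here. AGGTCA was present in 6 of these 27 windows (22.2%), those of Acadvl, Echs1, Eci1, Eci2, Hadhb and Hsd17b4, against 13.2% of 14271 windows of genes on the array and 16.2% of 33469 windows in all. Acadvl held it at -169 to -164 and at -17 to -12 relative to the start, and Hsd17b4 at -56 to -51. The direct repeat of AGGTCA with any 1 base between the copies, the element classically bound by PPARA with its partner, occurred in 0 of 27 windows and in 0.028% of the windows of array genes. Both TCAAGGTCA, the extended half-site of the estrogen-related receptors, and CAAAGTCCA, letters recognised by HNF4A, occurred in 0 of 27 windows, against 0.28% and 0.413% of the windows of array genes. The estrogen response element, GGTCA and TGACC with any 3 bases between, also occurred in 0 of 27 windows, against 0.014%. The GC box was present in 18 of 27 windows (66.7%), against 49.5% of the windows of array genes, whose median GC content was 58% against 59% for these genes. TCAAGGTCA and the direct repeat contain AGGTCA, all motifs were searched on both strands, and a match describes the letters of this window only.

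BPA and estradiol were also compared at the same capsule load of 15 mg, in T+low BPA against T+E2. Of the 31 genes, 5 were higher in T+low BPA and 0 were lower, while 1.78% of all genes were called higher and 1.75% lower. These were Pex11a (0.63 ± 0.11, 1.55-fold, adjusted p = 0.00516), Acadm (0.72 ± 0.14, 1.65-fold, adjusted p = 0.00971), Decr1 (0.46 ± 0.11, 1.37-fold, adjusted p = 0.0282), Ehhadh (0.62 ± 0.15, 1.54-fold, adjusted p = 0.0376) and Acaa2 (0.62 ± 0.16, 1.54-fold, adjusted p = 0.0463). Every T+low BPA array was above every T+E2 array for these genes, as was so for 10 of the 31 genes and 9.12% of all genes, while 2 of the 31 and 6.82% of all genes had the opposite order. The median difference over the 31 genes was 0.14 against 0.02 over all genes. This comparison and that of T+high BPA use the same T+E2 arrays, so the calls are not independent of each other.

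Pex11a was called whichever array was left out (highest adjusted p 0.0368). Acadm lost its call only without T+low BPA replicate 3 (0.0656), and Decr1 lost it without T+E2 replicate 1 or 4 (0.0624 and 0.0816) or T+low BPA replicate 2 or 3 (0.104 and 0.136). Ehhadh and Acaa2 were close to the threshold. Their calls were lost without any 1 of the T+low BPA arrays (0.0828 to 0.177 for Ehhadh, 0.118 to 0.184 for Acaa2), without T+E2 replicate 2 (0.0936 and 0.109) or 4 (0.0886 and 0.0665), or without Control replicate 3 (0.0547 and 0.0667). T+E2 replicate 1 (0.0754) and T+high BPA replicate 2 (0.0616) also decided the call of Acaa2, and T+high BPA replicates 1 and 3 decided both (0.0546 and 0.0505 for Ehhadh, 0.0646 and 0.063 for Acaa2). Without the 3 arrays highest in ventral prostate genes Acaa2 had a difference of 0.60 and an adjusted p of 0.0914.

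The other genes called in T+high BPA against T+E2 did not pass the threshold at the low dose. Hadh (0.34 ± 0.15), Eci2 (0.57 ± 0.23), Hsd17b4 (0.21 ± 0.10), Slc25a20 (0.24 ± 0.14), Echs1 (0.24 ± 0.14) and Cpt1a (0.18 ± 0.15) did not pass the threshold between T+low BPA and T+E2, with adjusted p from 0.24 to 0.689. The activating enzyme Acsl5 was at 9.58, 9.55 and 9.62 in T+low BPA and at 9.71, 10.19, 10.38 and 10.11 in T+E2. Its difference of -0.52 ± 0.14 had an adjusted p of 0.0719, and all T+low BPA arrays were below the T+E2 arrays. Without T+E2 replicate 1 it was called lower in T+low BPA.

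**Figure D3:**
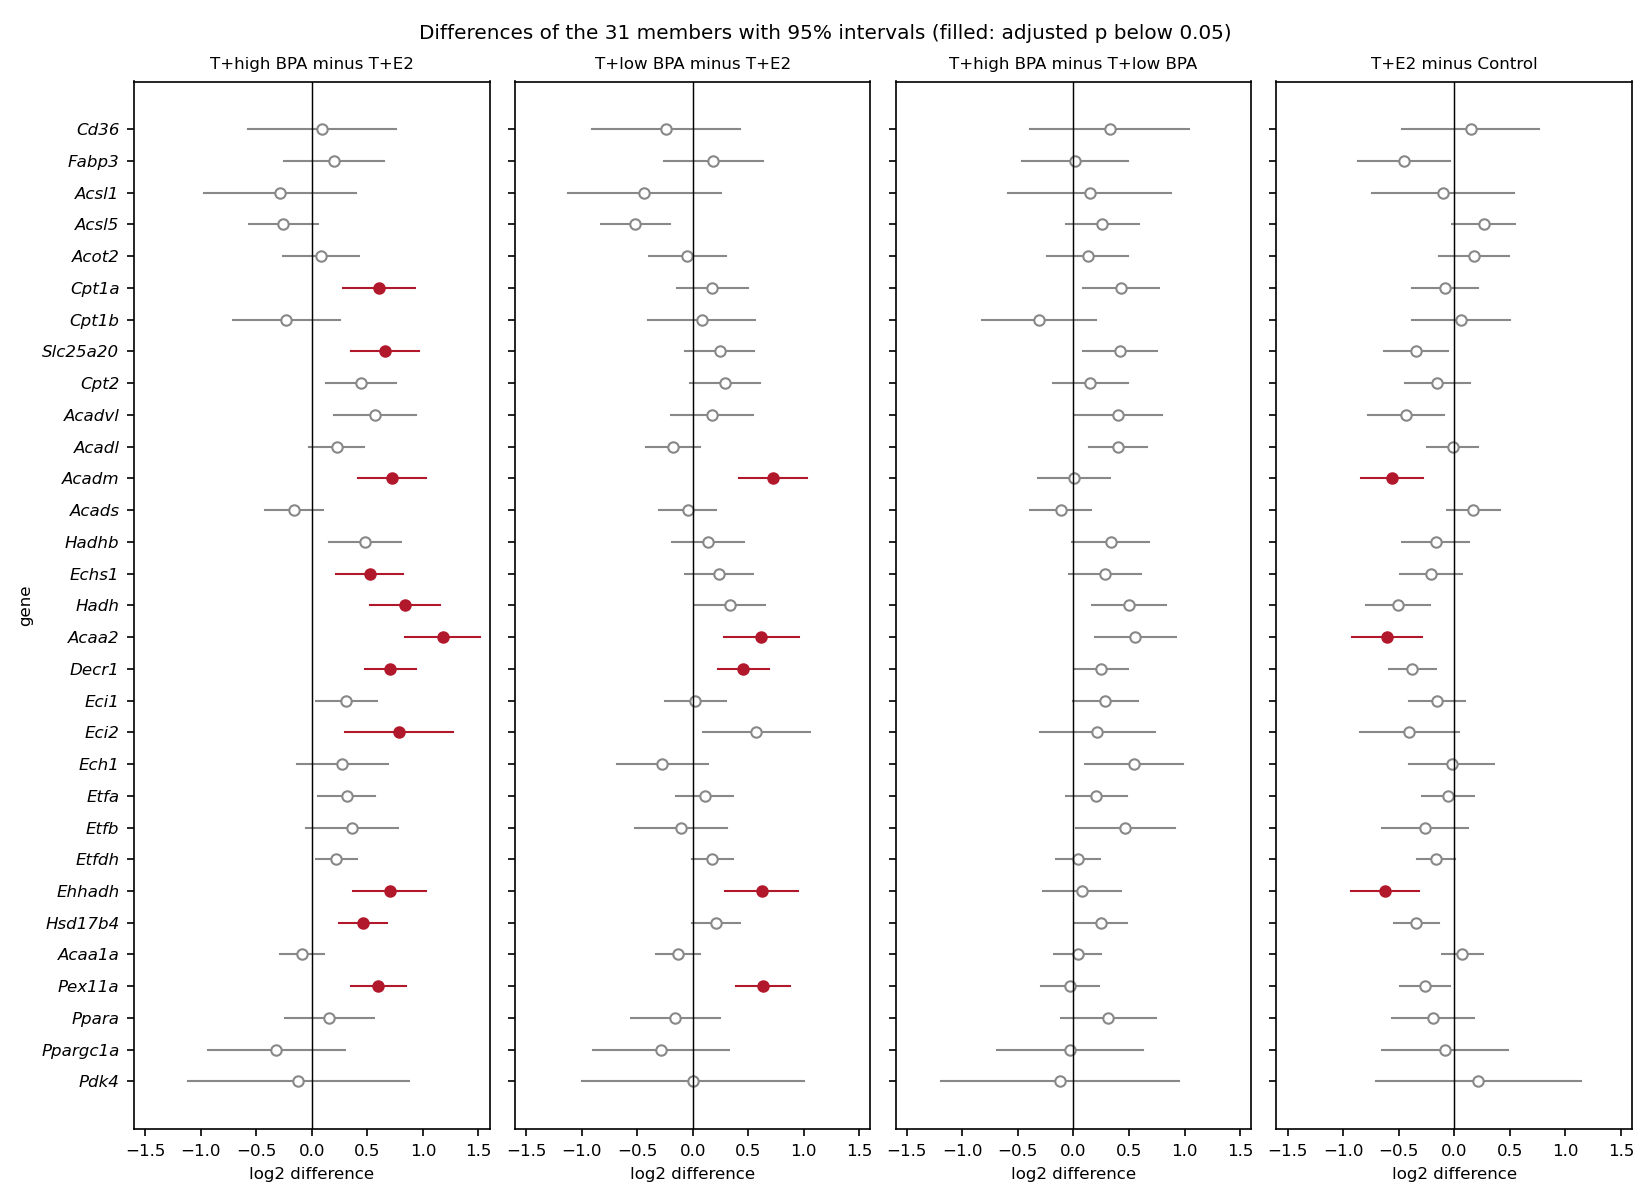
Log2 differences of the 31 genes (one per line) with 95% intervals in 4 comparisons; filled red points have an adjusted p below 0.05. There are 11 filled points for T+high BPA minus T+E2 and 5 for T+low BPA minus T+E2, all right of 0, none for T+high BPA minus T+low BPA, and 3 left of 0 for T+E2 minus Control.

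The BPA doses, 320 mg and 15 mg, were compared directly. None of the 31 genes was called between T+high BPA and T+low BPA, and 0% of all genes were called (limma), while 2252 genes, 14% of all, had an unadjusted p below 0.05. At that unadjusted level 10 of the 31 genes were higher in T+high BPA and 0 were lower, against 5.76% and 8.19% of all genes. The smallest p values were those of Acaa2 (0.56 ± 0.17, 95% interval 0.19 to 0.92), Acadl (0.40 ± 0.12, 0.14 to 0.66) and Hadh (0.50 ± 0.16, 0.17 to 0.84), each with an adjusted p of 0.272. Acadl was at 9.62, 9.82 and 9.92 in T+high BPA, 9.33, 9.29 and 9.55 in T+low BPA, 9.42, 9.59, 9.61 and 9.63 in T+E2, and 9.36, 9.78, 9.52 and 9.66 in Control. For Acadl, Acaa2 and Hadh all T+high BPA arrays were above all T+low BPA arrays, which held for 13 of the 31 genes and 9.61% of all genes, while 0 of 31 and 15.7% of all genes had the opposite order. The median difference over the 31 genes was 0.25 against -0.05 over all genes. The ventral prostate genes, at 10.54 to 12.75 in T+high BPA against 7.47 to 7.90 in T+low BPA, also separated the doses. With their mean as a model term 0 of the 31 genes were called, as without it. Because that mean separates the doses, this fit cannot show the part of the ventral prostate genes. Acadm (0.00, -0.32 to 0.33), Ehhadh (0.08, -0.27 to 0.43) and Pex11a (-0.03, -0.30 to 0.23) differed little between the doses, with intervals that leave room for differences of these sizes.

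Against Control, the T+E2 group had 3 genes lower and 0 higher, where 1.47% of all genes were called lower and 1.76% higher. Ehhadh (-0.62 ± 0.14, adjusted p = 0.0286), Acadm (-0.56 ± 0.13, adjusted p = 0.0318) and Acaa2 (-0.61 ± 0.15, adjusted p = 0.0386) were the called genes. All T+E2 arrays of Ehhadh were below all Control arrays, while T+E2 replicate 3 was at the level of Control replicate 4 in Acadm and above Control replicate 1 in Acaa2. The median difference over the 31 genes was -0.17 against 0.01 over all genes, and 24 of 31 were lower. Decr1 and Hsd17b4 also had no overlap, with differences of -0.38 ± 0.10 and -0.34 ± 0.09, but their adjusted p were 0.0538 and 0.0659. Thus 3 of 31 genes were below Control on every T+E2 array and 0 were above, against 4.69% and 4.66% of all genes. None of the 3 calls was kept in all fits that left out 1 array. For Acadm the call was lost on leaving out Control replicate 2 (adjusted p = 0.105) or 3 (0.1), and on leaving out T+E2 replicate 1 (0.0728), 2 (0.0997) or 4 (0.0811). For Ehhadh it was lost on leaving out Control replicate 3 (0.0713), and on leaving out T+E2 replicate 2 (0.0798) or 4 (0.0722). Acaa2 kept its call without 2 of the 14 arrays, T+E2 replicate 3 and Control replicate 1, and otherwise ran from 0.0503 to 0.124. Without Control replicate 4, Acadm and Ehhadh were called. Without the 3 arrays highest in ventral prostate genes only Acadm was called (-0.60, adjusted p = 0.018). The difference of Ehhadh was then -0.38 (adjusted p = 0.0888) and that of Acaa2 -0.58 (adjusted p = 0.13). With only T+E2 and Control in the fit all 3 calls were lost (0.0994 to 0.147).

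Against Control, 0 of the 31 genes were called in T+high BPA and 0 in T+low BPA. Over all genes limma called 1 gene (0.0062%) in T+high BPA against Control and 3 genes (0.0186%) in T+low BPA against Control, and 1394 (8.64%) and 1225 (7.59%) genes had an unadjusted p below 0.05. In T+high BPA 8 of the 31 genes had an unadjusted p below 0.05, all higher, against 4.62% of all genes higher and 4.02% lower. Acaa2 (0.57 ± 0.16, adjusted p = 0.374) and Cpt1a (0.52 ± 0.15, adjusted p = 0.379) came first, and the median difference was 0.16 against -0.02 over all genes. All T+high BPA arrays were above all Control arrays in 3 of the 31 genes, Acaa2, Hadh and Decr1, and below them in 0, against 3.94% and 5.13% of all genes. In T+low BPA 1 of the 31 genes had an unadjusted p below 0.05, against 5.19% of all genes higher and 2.4% lower. This was Pex11a, higher by 0.37 ± 0.11 with an adjusted p of 0.406, and its T+low BPA arrays were all above the Control arrays. Acsl5 was the 1 gene with all T+low BPA arrays below the Control arrays, and such separation held for 5.59% of all genes upward and 2.69% downward. Etfb, next in order of p, was at 7.88, 8.05 and 8.34 in T+high BPA, 7.67, 7.58 and 7.62 in T+low BPA, 7.41, 7.77, 7.94 and 7.80 in T+E2, and 7.56, 8.12, 7.75 and 8.53 in Control. The difference of T+low BPA from Control in Etfb was -0.37 ± 0.19 (adjusted p = 0.684). The comparisons with Control share the Control arrays, and those with T+E2 share the T+E2 arrays.

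The regulators of the pathway were not called in any of the 6 comparisons. Ppara itself was at 5.07, 5.28 and 5.58 in T+high BPA, 4.89, 4.69 and 5.40 in T+low BPA, 5.36, 5.02, 5.38 and 4.84 in T+E2, and 5.03, 5.40, 5.46 and 5.48 in Control. Its groups overlapped, and its difference between T+high BPA and T+E2 was 0.16 ± 0.19 with a 95% interval of -0.24 to 0.56. The mean signal of Ppara was low, at percentile 22.6 of all genes, so a difference could be missed. Ppargc1a, a coactivator of PPARA and of mitochondrial genes, was at 6.48, 6.06 and 6.28 in T+high BPA, 5.89, 6.17 and 6.86 in T+low BPA, 6.29, 6.72, 6.56 and 6.80 in T+E2, and 6.76, 6.91, 7.24 and 5.80 in Control. The difference of T+high BPA from T+E2 was -0.32 ± 0.29 (-0.93 to 0.30). Pdk4, the kinase that shuts off pyruvate oxidation and a textbook PPARA target, was at 6.38, 8.03 and 7.15 in T+high BPA, 6.97, 6.88 and 8.07 in T+low BPA, 7.06, 7.21, 7.36 and 7.60 in T+E2, and 6.02, 8.32, 7.23 and 6.80 in Control. It varied more within groups than between them, and its difference between T+high BPA and T+E2 was -0.12 ± 0.47 (-1.12 to 0.88).

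Uptake, binding and activation genes were likewise called in no comparison. Between T+high BPA and T+E2 the transporter Cd36 differed by 0.09 ± 0.31, the binding protein Fabp3 by 0.20 ± 0.21, the acyl-CoA synthetases Acsl1 and Acsl5 by -0.29 ± 0.32 and -0.26 ± 0.14, and the mitochondrial thioesterase Acot2 by 0.08 ± 0.16. Over the 14 arrays Cd36 ran from 5.85 (Control replicate 4) to 7.47 (T+high BPA replicate 3), and Acsl1 from 8.61 (T+high BPA replicate 3) to 10.59 (Control replicate 4). Fabp3 ran from 5.91 to 6.93 and Acot2 from 5.71 to 6.59. In each of these genes the spread within a group was as wide as the gap between T+high BPA and T+E2. The median difference of these 5 genes was 0.08. It was 0.68 for the 4 genes of hydration, second oxidation and thiolysis, 0.53 for the 4 peroxisomal genes, 0.52 for the carnitine shuttle, 0.51 for the enzymes of unsaturated chains, 0.40 for the acyl-CoA dehydrogenases, 0.31 for electron transfer and -0.12 for the regulators.

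Related genes outside the list were followed from 5 lists of the same pathways, to be read against the 6.48% of all genes called higher and 3.68% called lower in T+high BPA against T+E2. Of 32 other peroxisomal genes, 6 were higher in T+high BPA than in T+E2 and 0 lower, namely Pex16 (0.94 ± 0.17), Phyh (0.72 ± 0.12), Pex2 (0.55 ± 0.13), Abcd3 (0.43 ± 0.11), Mlycd (0.42 ± 0.12) and Pex5 (0.38 ± 0.11). Phyh starts the alpha-oxidation of branched chains, Abcd3 imports branched chains into the peroxisome, and the Pex genes build it. Of 28 other mitochondrial and acyl-CoA genes, 6 were higher and 1 lower. Acsl4, the synthetase that prefers arachidonate, was at 10.99, 10.72 and 10.51 in T+high BPA, 10.96, 10.73 and 10.91 in T+low BPA, 9.90, 9.68, 9.73 and 9.68 in T+E2, and 10.07, 10.31, 10.38 and 10.43 in Control. Its groups stood with both BPA groups highest, Control between and T+E2 lowest, without overlap. It was higher than in T+E2 by 0.99 ± 0.12 in T+high BPA (adjusted p = 0.000216) and by 1.12 ± 0.12 in T+low BPA (adjusted p = 9.99e-05), and it differed between T+E2 and Control by -0.55 ± 0.11 (adjusted p = 0.0155). Hsd17b10 (0.98 ± 0.18), Acad11 (0.97 ± 0.18), Gcdh (0.65 ± 0.16), Pccb (0.55 ± 0.12) and Nadk2 (0.48 ± 0.11) were the others higher in T+high BPA than in T+E2, and the acetyl-CoA synthetase Acss1 was lower (-0.41 ± 0.12).

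Of 15 other PPARA targets, Ucp2 (0.97 ± 0.18), a carrier of the inner mitochondrial membrane, and the peroxisomal thioesterase Acot3 (0.51 ± 0.15) were higher in T+high BPA than in T+E2 and Fgf21 was lower (-0.26 ± 0.08). The median of these 15 was -0.09. Of 4 ketone body genes, Acat1, the mitochondrial acetoacetyl-CoA thiolase, was higher (0.66 ± 0.12). Of 23 receptors and coactivators, the estrogen-related receptor Esrrg was higher (0.52 ± 0.14), and Esrrb (-0.44 ± 0.13) and the corepressor Ncor1 (-0.46 ± 0.10) were lower. Among all genes 6.48% were called higher and 3.68% lower, so 1 of 23 higher is no more than the background, and counts of 1 or 2 in these short lists are no result about the lists. Esrrb was at 5.71, 5.35 and 5.35 in T+high BPA, 5.46, 5.50 and 5.17 in T+low BPA, 5.84, 5.94, 5.79 and 6.08 in T+E2, and 5.44, 5.30, 5.36 and 5.08 in Control. T+E2 was the highest group without overlap, and it exceeded Control by 0.62 ± 0.12 (adjusted p = 0.00863), a call kept whichever array was left out (highest adjusted p 0.0368). Both Esrrb and Fgf21 had low signals, below the lowest array median of 6.38 on every array. Calls kept in all such fits between T+high BPA and T+E2 were those of Acsl4, Hsd17b10, Acad11, Pccb, Pex16, Phyh, Ucp2 and Acat1. Acad11, Pex16 and Gcdh were highest within Control in replicate 4 and within T+high BPA in replicate 2. Both arrays were high in ventral prostate genes, and the part of those genes in these values was not tested. The other calls in that comparison were lost in part of the 14 fits: Pex2, Nadk2 and Ncor1 were called in 12, Abcd3 and Gcdh in 11, Esrrg in 9, Esrrb and Acss1 in 7, Mlycd in 5, Pex5 and Fgf21 in 4 and Acot3 in 2, with adjusted p up to 0.168 (Mlycd, T+high BPA replicate 1 left out).

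At the 15 mg load, T+low BPA exceeded T+E2 in Phyh (0.77 ± 0.12, adjusted p = 0.00231), Abcd3 (0.47 ± 0.11), Nadk2 (0.53 ± 0.11), Pccb (0.47 ± 0.12) and Esrrg (0.62 ± 0.14) besides Acsl4, and was below it in Acss1 (-0.51 ± 0.12) and Esrrb (-0.54 ± 0.13). Among all genes 1.78% were called higher and 1.75% lower. Of the genes named, Acsl4 and Phyh were called whichever array was left out, Abcd3, Nadk2 and Acss1 in 11 of the 14 fits, Esrrb in 10, Esrrg in 8 and Pccb in 3. Against Control, T+E2 was lower in Prkaa2 (-0.62 ± 0.15), a catalytic subunit of AMP-activated kinase, in Nadk2 (-0.46 ± 0.10) and in Acat1 (-0.45 ± 0.11) besides Acsl4. These calls were kept in 12 of the 14 fits for Acsl4, 10 for Nadk2, 5 for Prkaa2 and 2 for Acat1. Between the BPA doses, and between either BPA group and Control, 0 genes of the 5 lists were called.

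**Figure D4:**
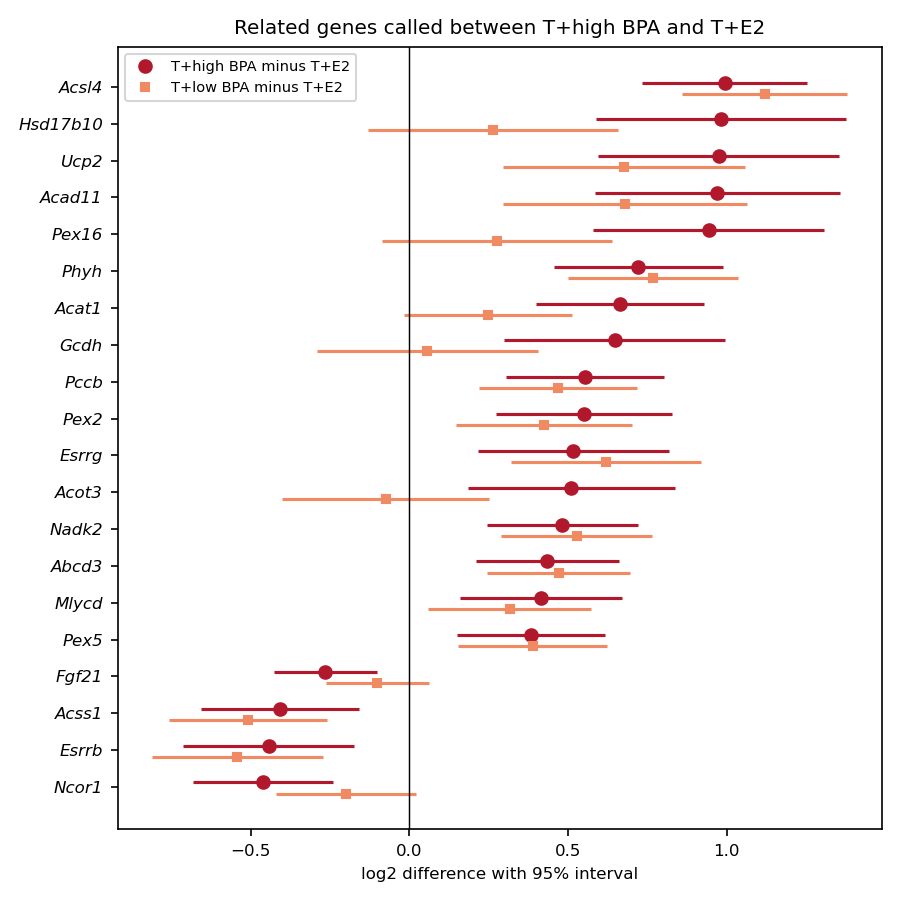
Log2 differences with 95% intervals (horizontal axis) of the genes of the 5 related lists called between T+high BPA and T+E2; circles are T+high BPA minus T+E2 and squares T+low BPA minus T+E2. Acsl4 is highest at 0.99 and 1.12, and Ncor1, Esrrb, Acss1 and Fgf21 lie left of 0.

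Markers of other tissues were set beside these differences. The mean of 18 skeletal muscle genes was 6.75 ± 1.07 in T+high BPA, 7.53 ± 1.39 in T+low BPA, 7.48 ± 0.93 in T+E2 and 8.05 ± 1.02 in Control (SD), with arrays from 6.10 to 9.13. The mean of the 31 fatty acid oxidation genes was 8.06 ± 0.08, 7.85 ± 0.13, 7.73 ± 0.11 and 7.91 ± 0.18 in the same groups, so T+high BPA was lowest in muscle genes and highest in fatty acid oxidation genes. Within groups the means moved together: deviations from the group means correlated at r = 0.80 (Spearman rho 0.77) over 14 arrays, and at 0.81 without the 2 arrays farthest from the median in muscle genes. Correlations with the muscle mean were not computed over all genes, so r and the counts below do not set the 31 genes apart from others. Gene by gene, 25 of 31 correlations with the muscle mean were above 0. Those with an adjusted p below 0.05 by permutation within groups were Fabp3 (r = 0.88), Cpt1b (0.85), Acadl (0.82), Etfdh (0.75), Ech1 (0.73) and Acaa2 (0.71), each with an adjusted p of 0.0159 over the 31 genes. Spearman's rho for them was 0.80, 0.82, 0.78, 0.75, 0.62 and 0.81 in the same order, with an adjusted p of 0.0389 for each but Ech1 (0.092), and r without the 2 farthest arrays was 0.76 to 0.88. Fabp3 and Cpt1b are known as heart and muscle forms. Of the other genes called between T+high BPA and T+E2, Hadh (0.67), Decr1 (0.62), Hsd17b4 (0.59), Echs1 (0.58), Acadm (0.54), Slc25a20 (0.34) and Cpt1a (0.34) had r above 0, while Pex11a (0.01), Ehhadh (-0.13) and Eci2 (-0.20) had r near or below 0. With the muscle mean as a covariate, the differences of Acaa2, Hadh and Acadm between T+high BPA and T+E2 were 1.28, 0.93 and 0.79. Without it they were 1.18, 0.84 and 0.72. Between T+E2 and Control, where muscle genes and members were both lower, the covariate left 3 calls, with Acaa2 at -0.52, Acadm at -0.51 and Ehhadh at -0.64. The part of skeletal muscle in the differences of the members was not tested. The muscle mean itself differed between groups, so these fits cannot separate it.

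**Figure D5:**
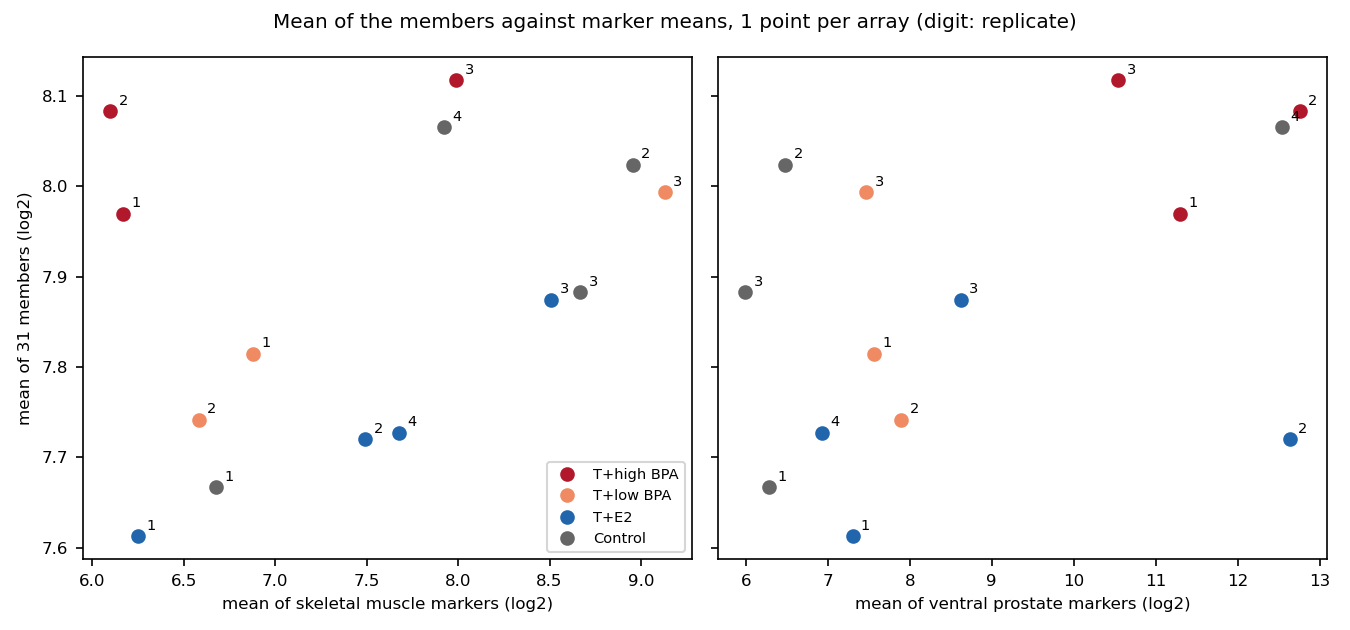
Mean log2 value of the 31 genes (vertical axis) against the mean of 18 skeletal muscle markers (left) and of 5 ventral prostate genes (right), 1 point per array with its replicate number. Deviations within groups follow the muscle mean (r = 0.80), and the T+high BPA arrays sit between 7.97 and 8.12 on the vertical axis.

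Smooth muscle genes differed in the same direction as the fatty acid oxidation genes. Their mean over 6 genes was 9.35 to 9.68 in T+high BPA, 9.30 to 9.55 in T+low BPA, 8.72 to 9.27 in T+E2 and 9.28 to 9.94 in Control, so T+E2 was below each of the other groups. Tagln (1.14 ± 0.20) and Actg2 (0.77 ± 0.20) were called higher in T+high BPA than in T+E2, and Tagln, Cnn1 and Actg2 were called lower in T+E2 than in Control. Their part in the result was not tested. Of 9 adipocyte markers none was called between T+high BPA and T+E2, their mean was 6.18 to 6.42 against 6.30 to 6.52, and Adipoq, which defines adipocytes, averaged 4.29 ± 0.11 against 4.78 ± 0.24. Cidea, a lipid droplet gene listed with Ucp1 as a brown fat marker, averaged 7.62 ± 0.17 in T+high BPA, 7.11 ± 0.15 in T+low BPA, 6.57 ± 0.16 in T+E2 and 7.45 ± 0.16 in Control, and was higher in T+high BPA than in T+E2 by 1.05 ± 0.12 (adjusted p = 0.000135). Ucp1 went the other way, with a difference of -0.33 between T+high BPA and T+E2 that was not called. Most arrays were either high or low in ventral prostate genes, so correlations with them rest on few arrays. Within groups, 24 of the 31 members had r above 0 with their mean (-0.68 to 0.89), and 0 had an adjusted p below 0.05 by permutation. The share over all genes was not computed here either. All 5 ventral prostate genes were higher in T+high BPA than in T+E2 (median difference 3.10), than in Control (3.97) and than in T+low BPA (4.23). None of these differences was called, but against Control and T+low BPA all 5 had an unadjusted p below 0.05. The part of the ventral prostate genes in the differences of the members was not tested, and the fits given above cannot separate it. Without the 3 highest arrays, T+high BPA was still above T+E2 in these genes, at 11.30 and 10.54 against 7.30, 8.62 and 6.92. Every T+high BPA array was at 10.54 or above, so the covariate is partly tied to that group.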

How the data were processed

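Total RNA of 14 lateral prostates was isolated with TRIzol, amplified with a whole-transcriptome kit and hybridised to Affymetrix arrays, per the labels' protocols. Per the submitters' processing notes, the authors made the deposited log2 values by RMA, which subtracts background, equalises arrays and summarises probes, so overall brightness differences had been removed. The genome build was not given in the sources used here, nor were the probe set definition and RMA version. Log2 values ran from 2.30 to 13.65, and precision is limited by how many arrays there are. The annotation gave 16134 of 17802 probe sets 1 symbol, 1668 none and 0 several. Symbols were updated through gene numbers of the GRCr8 RefSeq table (3107 updated, 16008 matched), and no value was filtered out.

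The model was limma 3.58.1 (R 4.3.3) with 1 coefficient per group over all 14 arrays (10 residual and 4.13 prior degrees of freedom), and two-sided p-values of each of 6 comparisons were adjusted by Benjamini-Hochberg over 16134 genes. A gene is called at an adjusted p below 0.05. Group values are mean ± SD, and differences carry their standard error. Correlations used deviations from group means, with 100000 permutations within groups. The code of the fit was checked on simulated arrays with independent noise for each gene. Those arrays lack outlying arrays and variation shared between genes, so they do not bear on the calls made here. The members, lists and tests were chosen with earlier results of these data known, although the rule for the members uses no measured value. Values by array are given for members called in any comparison, for the 3 smallest p of a comparison (2 where none was called), and for Ppara, Ppargc1a, Pdk4, Cpt1a and Cpt1b. Acadvl and Acsl5 were added after their values were seen. Related genes are named where called. Alternatives were cyclic loess, centring, all probe sets, a filter on dim genes, only the compared groups, an intensity trend, array weights, a replicate block, marker covariates, leaving out the 3 arrays highest in ventral prostate genes, and leaving out each array.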

Additional observations from a re-analysis of the deposited data

Results flagged for a closer look

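In 4 of 62 groups of 4 arrays, 1 array lay far from the rest of its group by Dixon's test at the 95% level, where chance gives about 1 group in 20. In Control replicate 4, Acsl1 was at 10.59 against 8.92 to 9.18 in the other Control arrays, Eci2 was at 9.84 against 8.83 to 8.87, and Acads was at 6.19 against 5.73 to 5.78. The mean of the ventral prostate genes was 12.54 in this array, against 5.99 to 6.48 in the other Control arrays; its part in these values was not tested. In Control replicate 1, Ppara was at 5.03 against 5.40 to 5.48.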

How the results depend on the processing

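The 186 differences of the members, over 25 alternatives, gave 4644 values. Of these, 4350 kept the sign and the side of the threshold, 78 lost the call, 52 gained one, and 164 changed sign without a call in either setting, while 0 changed sign where called. Between T+high BPA and T+E2 the count of 11 ran from 9 to 15 over the settings that used all arrays, and from 8 to 14 when 1 array was left out. Between T+low BPA and T+E2 the count of 5 ran from 1 to 7 when 1 array was left out. It was 3 without Control replicate 3, T+E2 replicate 2, T+low BPA replicate 1 or T+high BPA replicate 1 or 3, 2 without T+E2 replicate 4 or T+low BPA replicate 2, and 1 without T+low BPA replicate 3. Between T+E2 and Control the count of 3 ran from 0 to 6 when 1 array was left out (6 on leaving out Control replicate 1, 1 on leaving out T+E2 replicate 1 or Control replicate 2, and 0 on leaving out T+E2 replicate 2, T+E2 replicate 4 or Control replicate 3). It was 0 with only the compared groups in the fit, where fewer arrays estimate the spread, 6 with array weights, which gave Control replicate 4 a weight of 0.258, 8 with the ventral prostate covariate and 1 without the 3 arrays highest in those genes. Array weights also called 2 genes, Acaa2 and Pex11a, higher in T+high BPA than in Control, and otherwise the cause was not tested. The counts of 0 against Control for T+high BPA and T+low BPA, and between the BPA doses, stayed at 0 when any array was left out. The correlation of members and muscle genes was 0.74 to 0.90 when 1 array was left out. Cyclic loess moved the median of all genes by at most 0.05.

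The labels' replicate numbers recur across groups without a stated litter, batch or day. Of 19 same-numbered pairs 14 had r above 0.1 (-0.46 to 0.44), against 11 of 54 other pairs, and 6 of 14 arrays matched their own number best. The labels state no pairing, so none was assumed. The larger share above 0.1 among same-numbered pairs is a hint of a shared effect of the number, which was not tested. With the replicate block the counts were 13 between T+high BPA and T+E2, 5 between T+low BPA and T+E2, 4 between T+E2 and Control, and 0 in the other comparisons. Without the dim genes 12100 genes and 30 of the 31 members remained, and Ppara was left out.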
